A study of Arabidopsis thaliana with 8 samples.

Results

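Guard cells of unstressed bam1 and wild-type Arabidopsis plants were compared across all probes of an Agilent array. The comparison rests on 4 of the 8 arrays of the series, chosen by their labels alone: replicates 1 and 2 of bam1 control, and replicates 1 and 2 of Col-0 control. The bam1 control group holds guard cell RNA of the bam1 mutant, which the study's methods describe as a homozygous T-DNA insertion line, so that the mutant stands for 1 insertion. The Col-0 control group holds guard cell RNA of the wild type. Plants of these groups were 5 weeks old, grew at 22 °C by day and 18 °C by night, received no stress, were harvested when the light period ended, and were pooled by 5 to 8 per replicate. The other 4 arrays hold the same genotypes after 3 d at 32 °C by day and 28 °C by night, and are used here to estimate the spread and to set values side by side. Replicate 1 of each group lay on 1 slide and replicate 2 on the other, so each slide gives its own difference of bam1 control minus Col-0 control.

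Guard cells surround the stomatal pore and open it by taking up potassium, chloride and malate, which draws in water. Unlike mesophyll cells, they carry starch whose breakdown supplies sugars and malate during opening. Beta-amylases release maltose from starch, and BAM1 is a plastid member of that family that is active in guard cells. Abscisic acid closes the pore through PYL receptors, clade A phosphatases, the kinase OST1 and the anion channel SLAC1.

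Each control array detected 63.7% to 68.7% of the 43603 probes well above background. Testing was limited to probes that both arrays of some group detected, whichever of the 4 groups that was, which left 29615 probes, and 18554 genes when the brightest probe stood for each gene. Signals were quantile-normalized and are given in log2, and differences are bam1 control minus Col-0 control in log2. Of 15 guard cell markers, 14 were tested, and all 14 were well above background on all 4 control arrays. So were 17149 of the 18554 genes tested, so their detection cannot check the guard cell label. MYB61, a guard cell transcription factor, was not well above background on both arrays of any group. Mesophyll transcripts were abundant too. The median level of the 10 mesophyll markers tested was 16.8 and 16.9 in bam1 control and 16.7 and 16.7 in Col-0 control. The median of all genes was 9.7 on each of these arrays. All 10 were well above background there, which by itself shows no abundance. The summed signal of that list was 1613500 and 882830 in bam1 control and 1753900 and 1021400 in Col-0 control. Guard cells have chloroplasts and express several of these genes too.

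BAM1 (AT3G23920, TAIR10.1, chromosome 3, 8641181 to 8644449) had the largest deficit in bam1 of any gene tested. The BAM1 level was 6.81 and 6.87 on the bam1 control arrays, against 11.82 and 11.18 on the Col-0 control arrays. The groups did not overlap, and the difference was -5.004 on slide 1 and -4.32 on slide 2. The fitted difference was -4.66 (SE 0.35), a 25.3-fold lower level, but the adjusted P of limma over all probes was 0.104, above the threshold of 0.05. With 2 arrays a group an exact two-sided permutation test cannot give a P below 0.333, so none was used for single genes. The single BAM1 probe was well above background on every bam1 array as well, and its place relative to the insertion was not given in the sources used here, so it checks the labels without showing how much transcript is intact.

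The other beta-amylases tested lay within 0.40 of Col-0. BAM3, the plastid enzyme of mesophyll starch breakdown, was the brightest family member, at 13.72 and 13.79 in bam1 control and 13.67 and 13.72 in Col-0 control. BAM2, a plastid member, was at 9.27 and 10.32 in bam1 control and 9.09 and 9.70 in Col-0 control, with differences of 0.18 on slide 1 and 0.61 on slide 2. BAM2 was thus higher on both slides, yet the slides differed from each other by more than the genotypes, and its adjusted P in limma was 0.57. BAM6, BAM8 and BAM9 were also higher on both slides, with fitted differences of 0.23, 0.12 and 0.28. BAM5 and BAM7 differed in direction between the slides, and BAM4 was not analysed here.

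**Figure D1:**
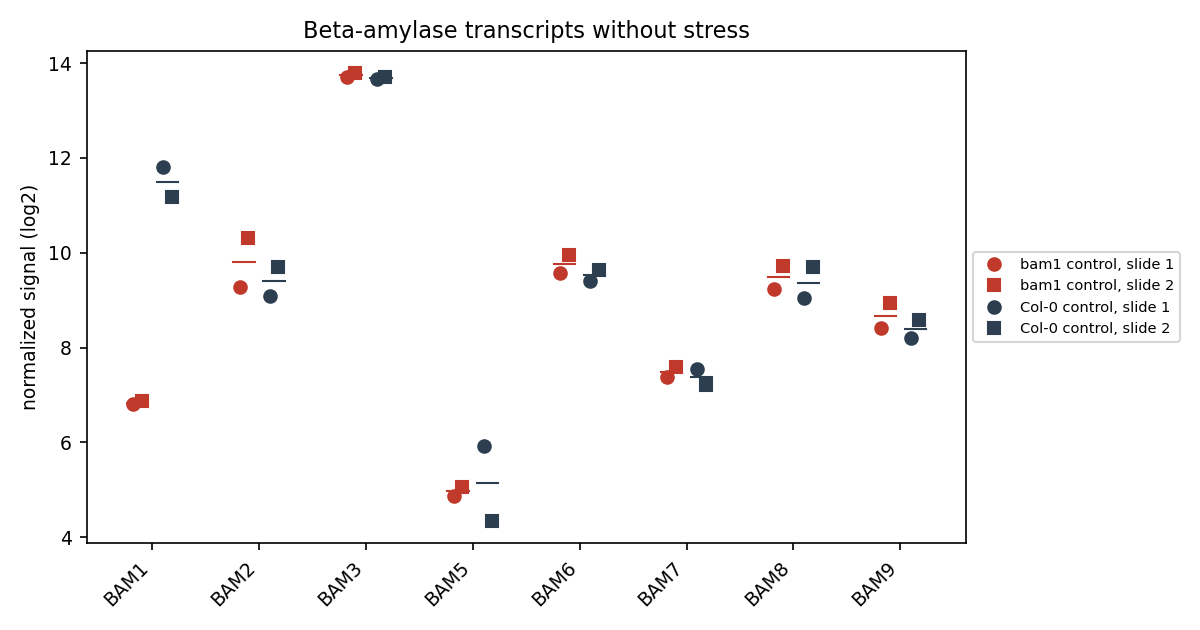
Normalized signal (log2, vertical axis) of the 8 beta-amylase transcripts tested (horizontal axis) in bam1 control (red, left) and Col-0 control (dark, right). Circles are slide 1, squares slide 2 and bars the group means; BAM1 stands at 6.81 and 6.87 in bam1 control and at 11.82 and 11.18 in Col-0 control, while the other members lie close together.

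The genes beside BAM1 on chromosome 3 did not share its deficit. TOPII, a DNA topoisomerase, differed by 0.56 and 0.20 on the slides, AT3G23940 by 0.40 and 0.38, and AT3G23900 by 0.30 and -0.18. With AT3G23930, 4 neighbours were tested, and none was called. Of the 4, 3 were higher on both slides, as were 30.9% of all genes. At an unadjusted P below 0.05 in limma, 2 of the 4 were higher, against 4.49% of all genes. AT3G23910 was not analysed here, and AT3G23950 was not well above background on both arrays of any group.

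A feature was called at an adjusted P below 0.05 (Benjamini-Hochberg, limma) and a difference of more than 2-fold. Only 3 of 29615 probes were called, 0.0101%, and all 3 rose in bam1 control. At an unadjusted P below 0.05 there were 2519 probes, 1303 of them higher and 1216 lower in bam1 control. Over the 18554 genes, 4.49% passed that unadjusted limit as higher and 3.9% as lower.

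The first called feature was AT3G59170, at 6.33 and 6.52 in bam1 control and 2.16 and 2.00 in Col-0 control. Both bam1 control values lay far above both Col-0 control values, and on all other arrays, including the 2 bam1 heat arrays at 2.02 and 2.00, the probe was not well above background. Because Col-0 control was not well above background on either array, the difference is given as at least 3.88-fold (adjusted P = 0.00417 in limma). For this bound each Col-0 control array counted at no less than its dimmest detected probe, and the mean of those values was set against the mean of bam1 control. The folds given as at least, here and below, hold for this background treatment alone. With normexp background correction the fitted difference of AT3G59170 was 1.01 in log2, which is below its bound.

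The probe A_84_P836925, which has no locus in the annotation used here, stood at 7.51 and 8.29 in bam1 control and 1.98 and 3.57 in Col-0 control. It was also high under heat in bam1, at 6.93 and 7.69, against 2.84 and 3.29 in Col-0. All 4 bam1 arrays were well above background and no Col-0 array was, and the control difference was at least 10.8-fold (adjusted P = 0.0338). The probe thus entered the test through the bam1 groups alone. Without the filter on dim probes it was not called (adjusted P = 0.2715 in limma). The probe A_84_P831256, also without a locus, had 6.01 and 7.43 in bam1 control and 3.66 and 5.14 in Col-0 control, a difference of at least 3.70-fold (adjusted P = 0.0256). The groups did not overlap, and the slide differences were 2.348 and 2.298, although the level itself was higher on slide 2 in both genotypes. Like AT3G59170, this probe was well above background only on the bam1 control arrays and entered the test through that group alone, and without the filter on dim probes it was not called (adjusted P = 0.166).

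These calls depended on the processing. None was made with scaling to the 75th percentile, with the authors' log2 table or with a control array left out. Normexp background correction called 4 features, BAM1 (lower), A_84_P836925, A_84_P848499 and A_84_P786320. Trend and robust options of limma called BAM1 and A_84_P836925. There AT3G59170 was not called (adjusted P = 0.304), and its SE was 0.59, against 0.13 in the main setting.

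Detection differed between the genotypes at more probes than were called. Of all 43603 probes, 533 were detected in both replicates of bam1 control and in neither replicate of Col-0 control, against 23 in the opposite pattern. The same counts under heat were 19 and 150. The arrays also differed in how many probes they detected: 29947 and 28629 in bam1 control and 28276 and 27784 in Col-0 control. Under heat, 30870 and 26729 were detected in bam1 and 30240 and 28847 in Col-0. The part of these array totals in the split was not tested. Only 4 probes were detected on all 4 bam1 arrays and no Col-0 array, among them A_84_P848499, another probe without a locus, at 8.95 and 9.53 in bam1 control and 2.96 and 5.46 in Col-0 control, at least 19.0-fold apart (adjusted P = 0.201, so not called). The others were A_84_P836925, AT5G48140 and AT1G44160, the last of which differed by only 0.54 and 0.41 on the slides. One probe, of FES1, a gene of flowering time, showed the reverse, on all 4 Col-0 arrays and no bam1 array, while the other FES1 probe was above background on all 8 arrays and differed by -0.05.

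The slide differences agreed only in part. More than 2-fold differences in the same direction on both slides were found for 303 probes, 255 higher and 48 lower in bam1 control, and 108 probes were more than 2-fold apart in opposite directions. In genes, 152 of 18554 (0.819%) were 2-fold higher on both slides and 27 (0.146%) 2-fold lower. Across all probes the slide differences had a Pearson correlation of 0.214 over 29538 probes, which share the arrays and are no replicates, and among the 26653 probes well above background on all 4 control arrays it was 0.0515. In that brighter set, 22 probes were 2-fold higher and 16 lower on both slides.

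**Figure D2:**
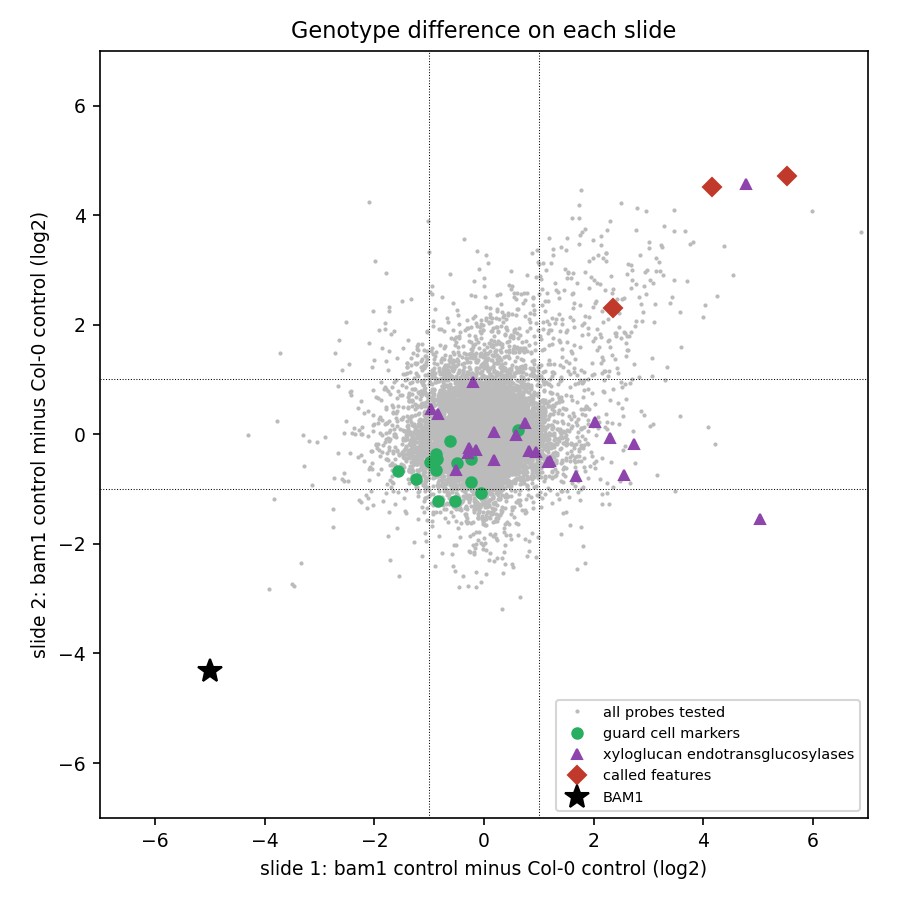
Difference of bam1 control minus Col-0 control (log2) on slide 1 (horizontal axis) and slide 2 (vertical axis) for 29538 of the probes tested (grey), with the 3 called features, BAM1, guard cell markers and xyloglucan endotransglucosylases marked; dotted lines mark 2-fold. BAM1 is at -5.004 and -4.32, guard cell markers sit in the lower left quadrant except TGG2, and most marked wall enzymes lie right of zero but near or below zero on slide 2.

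Most of the 255 higher probes were dim. In 211 of them (82.7%) Col-0 control was below background on both arrays, against 4.86% of all probes tested, and their median level was 5.42 and 5.67 in bam1 control and 3.45 and 3.33 in Col-0 control. Their detection differed between the heat arrays: 243 were well above background on bam1 heat replicate 1, 52 on bam1 heat replicate 2, and 133 and 106 in Col-0 under heat. Of all 29615 probes tested, 29008 and 26675 were well above background in bam1 under heat, and 28950 and 28578 in Col-0. The set thus stood apart by low detection on the heat arrays other than bam1 heat replicate 1. With normexp background correction, 11 probes were 2-fold higher and 3 lower on both slides.

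The 15 genes that were highest in bam1 control, ranked by the smaller of their slide differences, were XTH1, AT3G59170, AT5G48140, AT1G57850, AT4G28088, AT2G24700, AT4G09780, BHLH100, AT1G45223, NAC049, AT5G34883, LATE, AT2G02650, AT4G03290 and AT2G34320. In 14 of the 15, Col-0 control was below background on both arrays, so the order rests on values below background and is not read. Their bounds ran from at least 1.56-fold for AT5G34883 to at least 5.47-fold for XTH1. XTH1, an enzyme that cuts and rejoins xyloglucan in the wall, stood at 7.03 and 6.82 in bam1 control and 2.24 and 2.25 in Col-0 control. Under heat its bam1 values were 6.90 and 2.31, against 3.81 and 3.17 in Col-0, so the heat arrays of bam1 did not share a level and its adjusted P was 0.517. AT5G48140 was steadier, at 5.89 and 6.07 in bam1 control and 2.23 and 2.35 in Col-0 control, and 6.52 and 5.51 in bam1 under heat, against 3.77 and 4.09 in Col-0. AT2G02650 was the only 1 of the 15 that was well above background on all 4 control arrays, at 8.06 and 8.74 in bam1 control and 4.92 and 5.76 in Col-0 control. Under heat its bam1 values were 9.05 and 5.52, against 4.63 and 5.10 in Col-0, so its bam1 heat arrays did not share a level either. The adjusted P of its control difference in limma was 0.570. NAC049, a NAC transcription factor, and LATE, a zinc-finger repressor of flowering, were at least 2.05-fold and at least 1.79-fold higher, both being below background in Col-0 control. Their bam1 heat arrays stood apart as well, at 5.83 and 3.39 for NAC049 and 6.20 and 1.89 for LATE. Only AT3G59170 of the 15 was called.

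The 15 genes lowest in bam1 control were BAM1, AT2G03290, AT4G09130, AT5G43040, AT5G25840, AT2G15170, VTL2, ARP9, CYP71A14, SPX3, AT1G77160, AT5G40020, LTP3, CLE9 and CLE13. None passed the adjusted threshold. ARP9, an actin-related protein, had 8.72 and 7.22 in bam1 control and 9.998 and 9.19 in Col-0 control, and it stayed lower under heat by -1.12 and -0.93. The bright AT5G25840 was at 12.35 and 11.08 in bam1 control and 13.77 and 12.52 in Col-0 control, with near-equal slide differences of -1.43 and -1.44. SPX3, a sensor protein raised in phosphate starvation, was at 2.94 and 3.47 in bam1 control, below background, and at 6.77 and 4.65 in Col-0 control, at least 3.20-fold apart. LTP3, a lipid transfer protein, differed by -1.08 and -1.17, and under heat by -0.05 and -0.02. CLE9, a small signalling peptide gene, differed by -1.08 and -1.16, and CLE13 by -1.79 and -1.06.

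Guard cell markers were lower in bam1 control almost throughout. Of the 14 tested, 13 were lower and 1 higher on both slides, where 23.4% of all genes, and 23.9% of genes above background on all 4 control arrays, were lower on both slides, and 30.9% and 30.1% higher. Their median difference was -0.64, with -0.73 on slide 1 and -0.59 on slide 2, and the median of all genes was 0.02. None was called after adjustment, while 10 lay at an unadjusted P below 0.05 as lower, against 3.9% of all genes. In these bulk samples fewer guard cells in the preparation and less RNA per guard cell cannot be told apart.

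GC1, a secreted protein gene used as a guard cell marker, was at 12.81 and 12.82 in bam1 control and 14.38 and 13.48 in Col-0 control. SLAC1, the anion channel of closure, was at 10.76 and 9.81 in bam1 control and 11.60 and 11.03 in Col-0 control. ALMT12, a malate-permeable anion channel, was at 9.97 and 9.75 in bam1 control and 11.21 and 10.56 in Col-0 control. The fitted differences of these 3 genes, which were chosen with their values in view, were -1.11, -1.03 and -1.02. FMA, which sets guard cell fate, differed by -0.76, the transcription factors SCAP1 and MYB60 by -0.74 and -0.66, OST1 by -0.87, and the potassium channel GORK by -0.50. The exception was TGG2, a myrosinase, at 12.61 and 12.90 in bam1 control and 12.00 and 12.82 in Col-0 control, higher by 0.61 and 0.08.

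The difference between the guard cell list and the markers of other cells was not tested. Mesophyll markers had a median of 0.00, with 4 of 10 higher and 4 lower on both slides. The vasculature median was -0.07 (0.25 on slide 1 and -0.15 on slide 2). The epidermis median was -0.17 (-0.29 on slide 1 and -0.01 on slide 2), with 4 of 8 lower and 1 higher on both slides. The stomatal lineage median was -0.15 (-0.29 on slide 1 and 0.05 on slide 2). Without stress, 23.4% of all genes were lower and 30.9% higher on both slides. EPF1, a peptide that limits stomatal number, differed by -1.25 and -0.45. Under heat the median of the guard cell markers was -0.24, with 7 of 14 lower and 2 higher on both slides, where 28.5% of all genes were lower and 28.7% higher. That median was -0.49 on slide 1 and 0.04 on slide 2, so the control and heat values differed between slides as well, and the difference between control and heat was called for none of the 14.

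**Figure D3:**
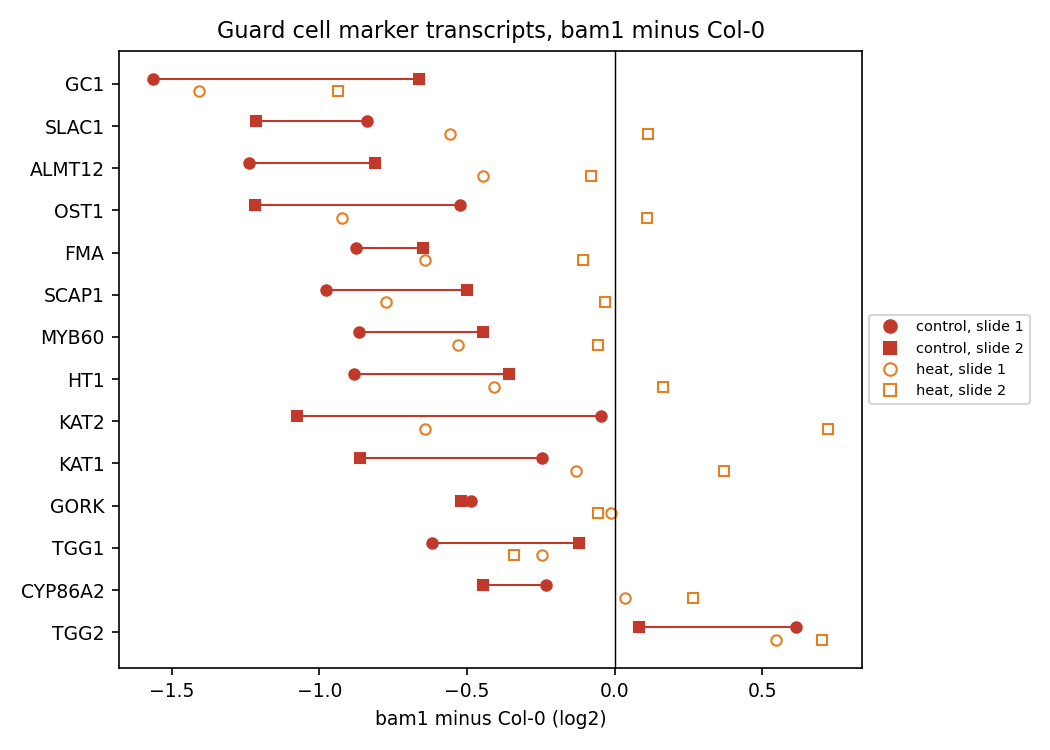
Difference of bam1 minus Col-0 (log2, horizontal axis) for the 14 guard cell markers tested, ordered by their fitted control difference, in control plants (filled) and heat-stressed plants (open). Circles are slide 1 and squares slide 2; without stress every marker except TGG2 lies left of zero on both slides, with medians of -0.73 and -0.59.

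Ion transport and light signalling genes of guard cells followed, with a median of -0.30. On both slides 17 of 30 were lower and 5 higher, against 23.4% and 30.9% of all genes. Of the 30 genes, 7 were also on the marker list, and the remaining 23 had a median of -0.12 with 10 lower and 5 higher. BLUS1, the kinase that carries the blue light signal to the proton pump, was at 10.16 and 9.80 in bam1 control and 11.28 and 10.51 in Col-0 control, AHA5, a proton pump, differed by -0.67 and -0.59, and the tonoplast exchanger NHX1 by -0.36 and -0.44. None was called.

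Abscisic acid genes were more often lower than higher. Of 34 genes of synthesis, breakdown and signalling, 17 were lower and 2 higher on both slides, and the median was -0.17. Of all genes, 23.4% were lower and 30.9% higher on both slides. PYL2, an abscisic acid receptor, was at 6.63 and 6.75 in bam1 control and 8.41 and 7.65 in Col-0 control. CYP707A1, an enzyme of abscisic acid breakdown, was at 7.29 and 7.35 in bam1 control and 5.75 and 7.02 in Col-0 control, higher by 1.54 on slide 1 and 0.33 on slide 2. Among 22 response genes of abscisic acid, cold and drought, 11 were lower and 1 higher on both slides, with a median of -0.42 that was -0.84 on slide 1 and -0.22 on slide 2. LTI30, a dehydrin, differed by -0.84 and -0.87 without stress and by -0.85 under heat on both slides. RD29B, a late response gene, differed by -0.87 and -0.76. GOLS2, a galactinol synthase, differed by -1.54 and -0.38, and the cold regulator CBF3 by -1.72 and 0.24, so that the slides did not share a size or, for CBF3, a direction. RAB18 (AT5G66400), a dehydrin, was read by 4 probes, of which 3 had fitted differences of -1.28, -1.31 and -1.64 and the brightest -0.07. Of the 3, A_84_P861274 was at 13.83 and 14.02 in bam1 control and 15.40 and 15.07 in Col-0 control. No gene of these lists was called. The guard cell marker median on the same arrays was -0.64, and its part in these differences was not tested.

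No starch or sugar gene was called. The 19 genes of starch breakdown ranged from -0.33 (AMY1, a secreted alpha-amylase) to 0.22, with a median of -0.01 and 3 higher and 5 lower on both slides. AMY2, another alpha-amylase, differed by -0.19 and -0.44, and DPE2, which uses maltose in the cytosol, by -0.26 and -0.28. In starch synthesis the median was -0.09 over 25 genes, and APL4, a large subunit of ADP-glucose pyrophosphorylase, was at 9.60 and 8.94 in bam1 control and 10.34 and 9.84 in Col-0 control. GPT2, the plastid glucose-6-phosphate carrier, was 2-fold higher on both slides at its brighter probe (1.39 and 1.26) with control levels below background on all 4 arrays, while its second probe had a fitted difference of -3.12, so the probes disagreed and no fold is given. Of 28 sugar carriers, sucrose-cleaving enzymes and hexokinases, 12 were lower and 8 higher on both slides, with a median of -0.07. Of all genes, 23.4% were lower and 30.9% higher on both slides. In this list 6 lay at an unadjusted P below 0.05, all lower, against 3.9% of all genes. Among them the sucrose synthases SUS3 and SUS4 had the largest differences: SUS3 was at 9.46 and 9.48 in bam1 control and 10.53 and 10.39 in Col-0 control, and SUS4 differed by -0.61 and -1.16. Of sugar-responsive genes, DIN10, a raffinose synthase of dark-treated leaves, differed by 1.59 and -0.17, and DRM1 by 0.54 and 0.40.

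**Figure D4:**
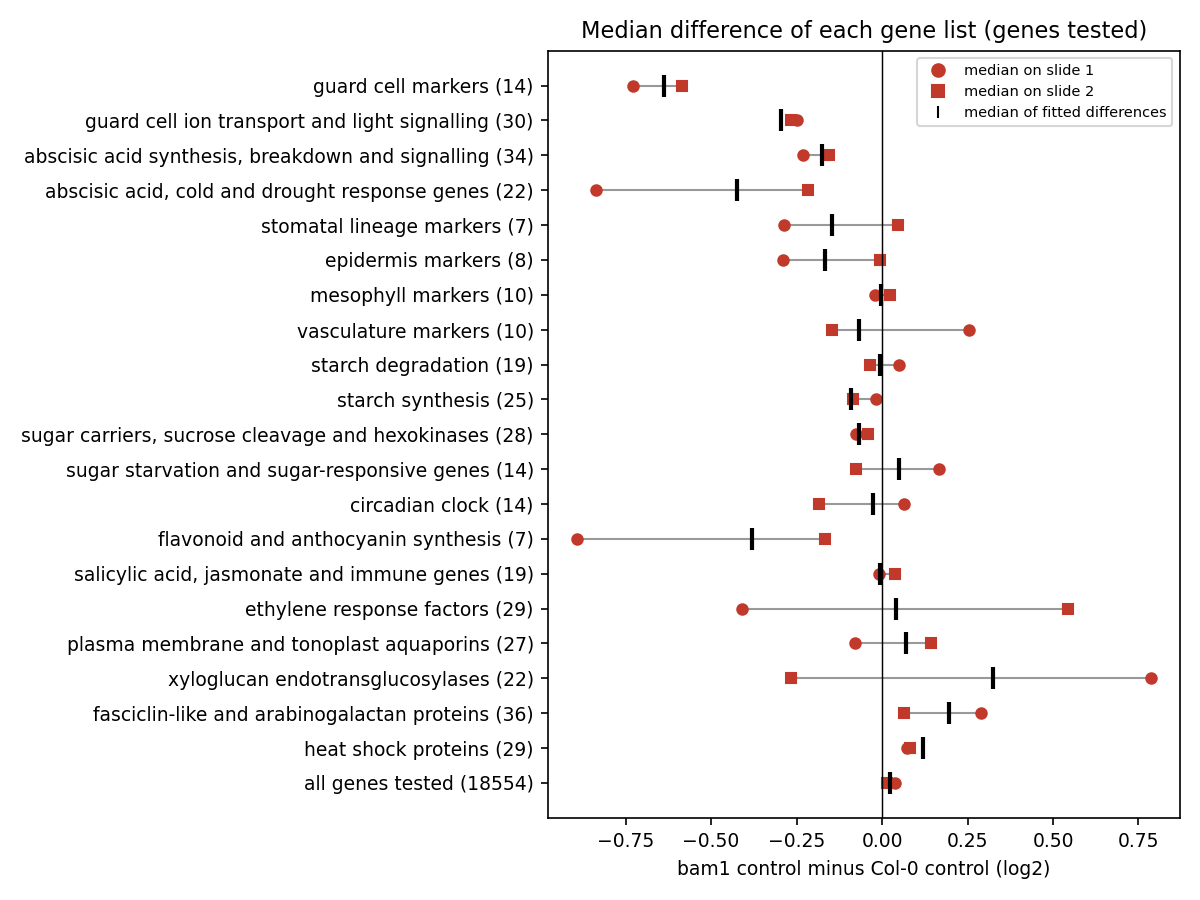
Median difference of bam1 control minus Col-0 control (log2, horizontal axis) over the tested genes of each list (number in brackets), on slide 1 (circles), on slide 2 (squares) and of the fitted differences (black marks). Guard cell markers lie at -0.73 and -0.59, all genes near zero, and the ethylene response factors and xyloglucan endotransglucosylases have slide medians of opposite sign.

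The slides disagreed over wall and jasmonate genes. Of 22 xyloglucan endotransglucosylases, 9 were more than 2-fold higher in bam1 control on slide 1 and 1, XTH1, on slide 2, and 11 were higher on slide 1 and lower on slide 2. Of all genes, 2.3% were more than 2-fold higher on slide 1, and 24.3% were higher on slide 1 and lower on slide 2. XTH9 was at 14.63 and 13.93 in bam1 control and 12.09 and 14.66 in Col-0 control, so Col-0 control replicate 1 was the array that stood apart. AGP7, an arabinogalactan protein, was at 10.76 and 11.64 in bam1 control and 8.55 and 11.51 in Col-0 control, with the same array low. Among 29 ethylene response factors, 20 were lower on slide 1 and higher on slide 2, a pattern of 21.1% of all genes. MYC2, the jasmonate regulator, was at 11.31 and 12.29 in bam1 control and 12.21 and 11.18 in Col-0 control, and JAZ1, a jasmonate repressor, differed by -0.66 and 1.05. VSP2, a jasmonate-induced storage protein gene, was lower in bam1 control on both slides, but by unlike amounts. It was at 6.10 and 5.54 in bam1 control and 6.48 and 8.12 in Col-0 control. The median was 0.07 for the aquaporins, -0.04 for the expansins, -0.03 for the cellulose synthases, -0.05 for the Aux/IAA repressors, -0.07 for the auxin response factors, 0.19 for the arabinogalactan proteins and 0.12 for the heat shock proteins, and none of their genes was called. Of 51 SAUR genes, which respond to auxin, 22 were lower and 9 higher on both slides, with a median of -0.15. Of all genes, 23.4% were lower and 30.9% higher on both slides.

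Of 14 clock genes, 2 were higher and 6 lower on both slides, against 30.9% and 23.4% of all genes, and their median was -0.03. CCA1, a morning factor of the clock, was at 6.46 and 5.04 in bam1 control and 7.87 and 6.05 in Col-0 control, 2-fold lower on both slides, and under heat differed by 0.43 and 0.22. Of 7 flavonoid genes, 1 was higher and 4 lower on both slides. F3'H, a hydroxylase of flavonoid synthesis, was at 8.26 and 8.00 in bam1 control and 9.20 and 9.30 in Col-0 control, and the median of this list was -0.38, at -0.89 on slide 1 and -0.17 on slide 2. The 19 salicylic acid, jasmonate and immune genes had a median of 0.00, with 2 higher and 2 lower on both slides.

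Iron homeostasis genes were examined after BHLH100 and VTL2 had appeared in the rankings, so their list was chosen after its values were seen and carries no test. Each of the 19 genes measured had the same direction on both slides, 10 of them higher and 9 lower, and IMA3 was not analysed here. Of all genes, 30.9% were higher and 23.4% lower on both slides. The members named below were chosen with their values in view and do not stand for the whole list. BHLH100, 1 of 4 related bHLH factors that are raised in plants short of iron, was at 5.26 and 5.78 in bam1 control and 1.96 and 1.98 in Col-0 control, at least 2.06-fold higher. BHLH101, a close relative, was at 7.42 and 8.41 in bam1 control and 6.44 and 7.19 in Col-0 control. BHLH38 was at least 2.33-fold higher, since Col-0 control was below background on both arrays, as it was for BHLH39. These adjacent genes are similar in sequence, so their probes may share signal. IMA2, a peptide gene raised when iron is short, was at 11.14 and 11.73 in bam1 control and 9.57 and 10.63 in Col-0 control, and its neighbour IMA1 differed by 1.48 and 0.47. On the opposite side, FER1, the ferritin that stores iron, was at 11.66 and 10.23 in bam1 control and 12.47 and 11.65 in Col-0 control. VTL2, a vacuolar iron transporter-like gene, was at 3.93 and 3.51 in bam1 control and 5.94 and 4.80 in Col-0 control, NAS3, a nicotianamine synthase, differed by -0.54 and -0.88, and VTL1 by -0.74 and -0.33. Under heat, 4 of the 19 genes were higher and 10 lower in bam1 on both slides. BHLH100 was then at 9.71 and 8.76 in bam1 and 9.65 and 9.08 in Col-0, BHLH101 differed by -0.75 and -0.76, and BHLH38 by 0.19 and 0.18. FER1, lower without stress, differed by 0.33 and 0.71 under heat. VTL1 differed by -0.28 and -0.62 under heat. VTL2 was below background on all 4 heat arrays.

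**Figure D5:**
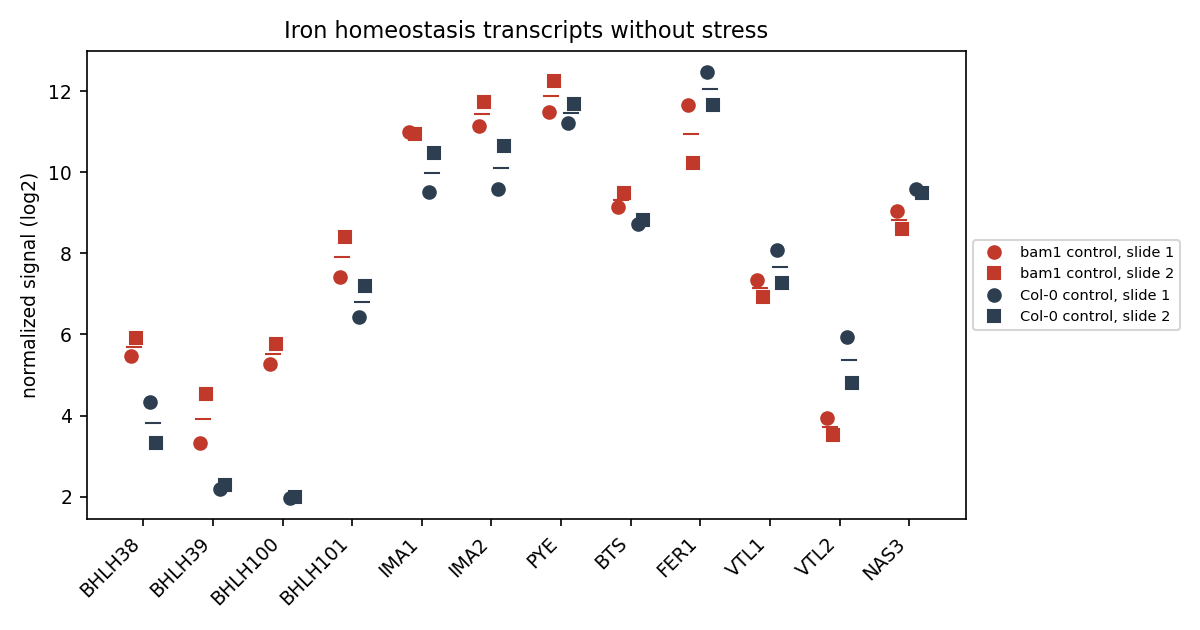
Normalized signal (log2, vertical axis) of 12 iron homeostasis transcripts (horizontal axis) in bam1 control (red, left) and Col-0 control (dark, right), with slide 1 as circles, slide 2 as squares and group means as bars. The 12 were chosen with their values in view from the 19 genes tested, of which 10 were higher and 9 lower in bam1 control on both slides. BHLH100 stands at 5.26 and 5.78 in bam1 control and at 1.96 and 1.98 in Col-0 control, while FER1 and VTL2 lie lower in bam1 control on both slides.

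The heat values of the 2-fold sets are a description with no test. Of the 255 higher probes, 83 (32.5%) were higher in bam1 on both slides under heat, against 25.4% of all probes tested, and 15 (5.88%) lower, and their median heat difference was 1.99 on slide 1 and -0.32 on slide 2. Of the 48 lower probes, 23 (47.9%) were lower in bam1 on both slides under heat, against 31.5% of all probes, and 8 (16.7%) were higher. The control and heat differences share no array. The test of the difference between them called 1 probe, AT3G59170, in the whole table, and without the filter on dim probes this probe's test was not called (adjusted P = 0.225).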

How the data were processed

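RNA of guard cell preparations was labelled with Cy3 and hybridized in 1 colour. The authors deposited the output of the feature extraction software (version 11.5.1.1), in which the intensity of each spot is already background-subtracted, and a table of log2 values, of which 99.97% lay within 0.05 of log2 intensity minus the 75th percentile of the array, centred on each probe's median. That table was used as an alternative. The deposited design carries build TAIR10, and gene positions are those of TAIR10.1.

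Control spots and outliers were left out and spots of a probe were averaged. RefSeq accessions gave 34348 of 43603 probes a locus and the study's supplementary tables a further 193. Log2 intensities were quantile-normalized. limma (3.58.1, R 4.3.3) fitted the 4 group means with the slide as a block over all 8 arrays (3 residual degrees of freedom). Deviations from the group means correlated between same-numbered arrays (r of 0.282 or more, up to 0.628, in every pair of groups), so numbers pair the arrays through the slide. Replicates were separate pools of plants, per the labels. The step was tested on simulated data for this comparison: of probes changed by 1.5 in log2 among 29455, 77.6% were recovered, of those changed by 3.0, 98.6%, with 9 false calls. The simulated noise was normal and independent between probes, with the fitted spreads, and 200 probes were changed. These rates do not carry over to the real arrays, where BAM1 at -4.66 was not called.

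Genes named are every called feature, the beta-amylases, the 15 highest and 15 lowest genes, members of gene lists 2-fold apart on both slides or otherwise the 2 most different, and the 3 genes each side of BAM1. Further list members were named with their values in view. Lists, members and tests were chosen with earlier results of these data known. Alternatives were the 75th percentile, normexp background correction, the authors' table, other filters, no block, only the control arrays, array weights, trend and robust options, 1 probe per gene, the methods' t-test and each array left out. Sequences were not used here.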

Additional observations from a re-analysis of the deposited data

Results flagged for a closer look

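One result was singled out because the genotype difference in control plants and the genotype difference in heated plants differed by a test of that difference. For AT3G59170, bam1 minus Col-0 under heat minus the same without stress was -4.33 (SE 0.18, adjusted P = 0.0286 in limma, interaction over all 29615 probes tested). The probe was above Col-0 on both slides without stress, by 4.17 and 4.52, and by 0.02 on each slide under heat, where neither genotype was well above background. It entered the test only through bam1 control, the group in which it was high, and the other 6 arrays were below background, so the size rests on values that carry only a bound. Without the filter on dim probes, an alternative chosen after seeing the data, the adjusted P was 0.225 and the result was not called. The background correction changes the size: with normexp the control difference was 1.01 (adjusted P = 0.0615). Its cause was not tested.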

How the results depend on the processing

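The number of called features depended on the processing. Against 3 in the main setting, it was 0 with the 75th percentile, 0 with the authors' log2 table, 1 without a filter on dim probes (AT3G59170), 1 with a filter on all 8 arrays (BAM1), 1 with 1 probe per gene, and 0 in the 4 control arrays alone. Without the replicate block that pairs arrays by slide, 1 feature, AT3G59170, was called. Leaving out single arrays gave 0 to 37 calls: 37, of which 35 were higher in bam1, without bam1 heat replicate 1 or without bam1 heat replicate 2, and 0 without any of the other arrays. With 1 array of a heat group left out, its partner is fitted exactly and adds nothing to the spread. The results without either array of a heat group are therefore 1 and the same fit. In the full set, at an unadjusted P with 2-fold there were 438 features, by the methods' t-test 182, and 0 after Benjamini-Hochberg. In each setting with 0 calls, limma found 1700 or more probes at an unadjusted P below 0.05.

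BAM1 kept its direction in all settings. It passed the threshold with normexp (-3.74, adjusted P = 0.00453), the filter on all 8 arrays (-4.66, adjusted P = 0.0493), and trend and robust options (-4.66, adjusted P = 0.0258). With arrays left out the difference ran from -5.21 to -4.11, and it passed at 0.0401 without either bam1 heat array. Over all settings the adjusted P ran from 0.00453 to 0.463.

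The number of probes 2-fold apart on both slides was 303. It was 14 with normexp, 727 without a filter, 32 with the filter on all 8 arrays, 798 at 1.5-fold, and 38 among probes well above background on all 4 control arrays, an alternative chosen after seeing the data. Of the 14, 11 were higher, and of the 274 with the 75th percentile 205 were. The guard cell marker median of -0.64 ran from -0.75 to -0.61 with a control array left out. The 3 called features kept their direction in all settings run, and so did the other 28 ranked genes.

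Precision is limited by 2 arrays per group, and for dim probes by signal near background, where background correction sets the size of a difference.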
